A study of Mus musculus with 12 samples.

Results

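The change with time was followed in OTII cells primed in recipients that lacked IL-6. OTII cells carry a transgenic receptor for a peptide of ovalbumin (OVA) and are CD4+ T cells, and the donor cells of every group carried an intact *Il6* gene. Naïve OTII cells were transferred into Il6-/- mice, the recipients were sensitized i.n. with house dust mite extract containing LPS (HDM+LPS) together with OVA labeled as free of LPS, and donor cells were sorted from the lung-draining mediastinal lymph nodes (mLNs) on Day 3 or Day 5. For sorted donor cells the methods name staining for B220, CD4, CD44 and CD45.1. The 3 Il6-/- Day 3 libraries were compared with the 3 Il6-/- Day 5 libraries, which are 6 of the 12 libraries of the study, and were chosen by these labels alone. The other 6 libraries came from OTII cells in WT recipients treated and sorted in the same way, and they are used only to test where the time course differed. Age, sex and strain are not in the labels, and nothing ties a library to 1 animal or to a pool, so p values measure the spread between these samples. Blood is the tissue named in the sample labels, whereas the description of the series and the paper give the mLN, and the description also states that the paper starts to count its days at another number. Days are given here as labeled.

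A naïve CD4+ T cell that meets its antigen enlarges, raises ribosome production, glycolysis and lipid synthesis, and then divides many times within days. IL-2, made by the activated cells themselves, acts through the high-affinity receptor chain CD25 (*Il2ra*) and STAT5 and sustains this growth, while IL-6 acts through the receptor chain *Il6ra* and the shared chain gp130 (*Il6st*) on STAT3. In the lymph node, primed cells then part into effector cells such as Th1, Th2 and Th17 cells, into T follicular helper (Tfh) cells, which carry *Bcl6* and *Cxcr5* and help B cells, and into memory precursors, which regain homing and quiescence genes.

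The Day 3 libraries held between 19940893 and 22276035 reads counted on genes, and the Day 5 libraries between 16125947 and 18264336. Reads outside genes made up 11.7% to 12.5% of the Day 3 and 15.7% to 17.0% of the Day 5 libraries, and the 10 genes with most counts took 7.15% to 7.74% and 9.59% to 11.6% of the counts. Reads were counted without strand, so genes whose exons overlap those of another gene are uncertain. Beside those named with their results, this holds for *Bid*, *Ccr6*, *Cd247*, *Chchd10*, *Ddit3*, *Dnajb9*, *Dusp6*, *Ecm1*, *Hif1a*, *Hopx*, *Ifi27l2a*, *Ikzf4*, *Irf1*, *Irf9*, *Jak1*, *Jak3*, *Junb*, *Maf*, *Nop56*, *Nop58*, *Nrp1*, *Pear1*, *Plbd2*, *Rasgrp2*, *Rnf19a*, *Rora*, *Shmt1*, *Shmt2*, *Slfn5*, *Smtn*, *Socs5*, *Sqle*, *Stat4* and *Wnt10a*. No pair of libraries agreed within sampling noise. In a principal component analysis of all 12 libraries, component 1 held 61% of the variance and separated Day 3 from Day 5, and along it replicate 2 of Day 5 lay nearest to Day 3. The defining markers of T cells summed to between 6195 and 6377 CPM (counts scaled to a common library total, with TMM factors) on Day 3 and between 9492 and 10545 CPM on Day 5. Of the B-cell markers, 7 of 13, *Ms4a1* among them, stayed under 1 CPM in every library, and the list as a whole summed to between 555 and 636 CPM on Day 3 and 486 and 571 CPM on Day 5, mostly from *Ighm*. Of the 7 tested, 2 rose and none fell at an FDR of 0.05, beside 30.4% and 30.1% of all genes tested. The risers were *Cd79a*, from 0.776 ± 0.565 to 2.59 ± 0.522 CPM (log2FC 1.73, FDR = 0.0064), and *Pax5*, from 0.171 ± 0.187 to 1.51 ± 0.681 CPM (log2FC 3.10, FDR = 0.00093). *Cd79b* had 6.6, 5.78 and 7.06 CPM on Day 3 and 6.14, 7.38 and 3.49 CPM on Day 5. *Cd22* had 6.02, 7.32 and 6.49 and then 5.24, 6.04 and 2.5 CPM, and neither passed the test. Markers of myeloid and dendritic cells summed to 19.2 to 51.1 CPM on Day 3 and 29.7 to 81.5 CPM on Day 5, sums that varied with *Lyz2*, *S100a8* and *S100a9*. Of the 13 tested, 7 rose and none fell, against 30.4% and 30.1% of all genes tested. Among the 7 were *Tyrobp*, from 1.06, 1.11 and 1.18 to 3.97, 4.51 and 2.19 CPM (log2FC 1.66, FDR = 0.0018), and *Zbtb46*, from 0.792, 0.530 and 1.80 to 5.13, 3.52 and 3.49 CPM (log2FC 1.94, FDR = 0.00084). Those of lung epithelium summed to 1.69 to 23.9 and 13.9 to 23.1 CPM. The 6 MHC class II genes summed to between 110.4 and 123 CPM on Day 3 and between 288 and 332 CPM on Day 5. Of these genes 2 rose and none fell, beside 30.4% and 30.1% of all genes. Most of the rise of the sum came from *H2-DMa*, with 62.5, 72 and 84.5 CPM on Day 3 and 276, 238 and 257 CPM on Day 5. The part of other cells in the results was not tested, and in sorted bulk samples fewer cells of a kind and less RNA per cell cannot be told apart.

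Of 13570 genes tested with edgeR's quasi-likelihood F test, 1966 (14.5%) were higher and 1543 (11.4%) were lower on Day 5 than on Day 3 in Il6-/- recipients, where a call needed a change of 2-fold or more and an FDR (Benjamini-Hochberg adjusted p) under 0.05. The libraries of both days did not overlap for 3404 of these 3509 genes, and they did not overlap for 65.8% of all genes tested. Levels are given below for replicates 1, 2 and 3 in turn, or as mean ± SD (n = 3). With no limit on the fold change, 4122 genes (30.4%) rose and 4089 (30.1%) fell. Changes of at least 8-fold numbered 181 upward and 45 downward among the called genes. Of the called genes, 143 that rose had at most 3 counts in each Day 3 library, and 15 that fell had at most 3 counts in each Day 5 library, so that their folds are only bounds. The log2 fold change (log2FC, Day 5 minus Day 3) had a median of 0.09 over all genes tested and lay between −1.56 and 2.01 for 90% of them. Higher genes made up 56.0% of the calls, and 67.4% when library sizes were not scaled by TMM, which moved the median log2FC of all genes by 0.15. Without replicate 2 of Day 5, 1963 genes were higher and 1729 lower. An exact two-sided permutation test of 1 gene has 20 ways to split 3 libraries from 3, and its smallest possible p is 0.1.

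**Figure D1:**
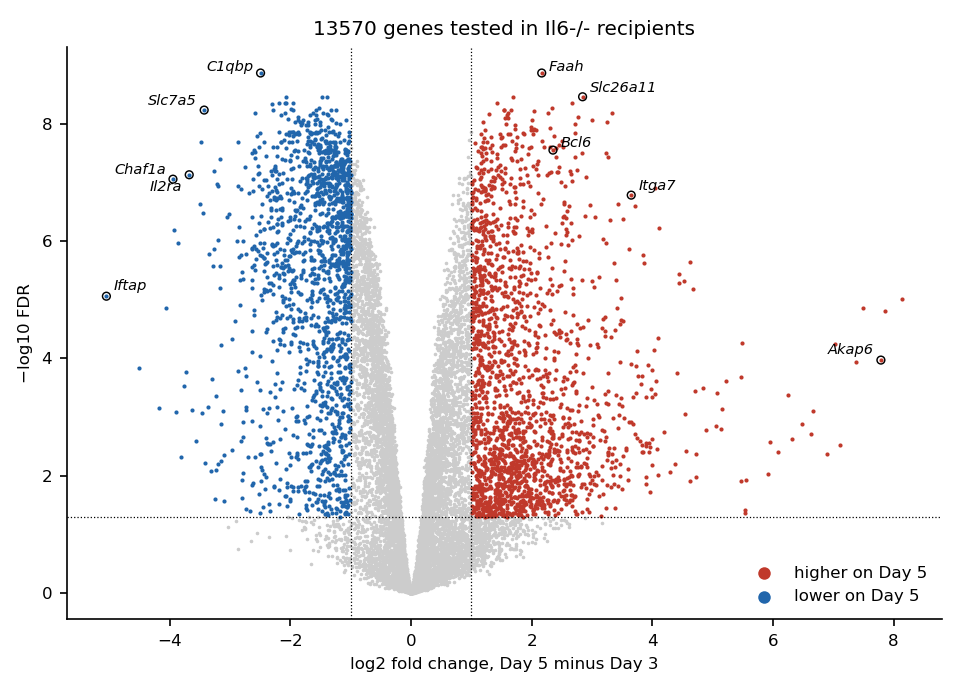
Each point is 1 of 13570 genes, with the log2FC of Day 5 minus Day 3 in Il6-/- recipients on the x axis and −log10 of the FDR on the y axis. Dotted lines mark 2-fold and an FDR of 0.05, beyond which 1966 genes were higher (red) and 1543 lower (blue), and the points of *Faah* and *C1qbp* stand highest on either side.

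The most abundant transcripts changed in part between the days. Among the 10 genes with the highest mean on Day 3, *Actb* and *Actg1* of the actin cytoskeleton, the chaperone *Hsp90ab1* and lactate dehydrogenase (*Ldha*) gave way on Day 5 to *Trac*, the constant region of the T-cell receptor α chain, the class I gene *H2-D1*, the GTPase *Rac2* and the actin regulator *Coro1a*. *Ldha* had 3678, 3721 and 3778 CPM on Day 3 and 1419, 2034 and 1872 CPM on Day 5 (log2FC −1.07, SE 0.11, FDR = 1e-06). *Hsp90ab1*, *Actg1* and *Actb* fell too (log2FC −0.90, −0.80 and −0.41). *Trac* rose from 2392 ± 9.95 to 4570.2 ± 305 CPM (log2FC 0.93, FDR = 1.2e-07), *H2-D1* from 2412 ± 114 to 4809.7 ± 309 CPM (log2FC 1.00, FDR = 1.4e-08) and *Rac2* from 2372 ± 81 to 3819.6 ± 57.5 CPM (log2FC 0.69, FDR = 1.6e-07), while *Coro1a* had 3678 ± 112 and 3578 ± 212 CPM (log2FC −0.04, FDR = 0.62). On both days the list held *Lars2*, *mt-Rnr2*, *AY036118*, the thymosin gene *Tmsb4x* and the elongation factor *Eef1a1*. *Eef1a1* had 5041 ± 309.5 and 4957 ± 332 CPM (log2FC −0.02, FDR = 0.76). The mitochondrial ribosomal RNA gene *mt-Rnr2* rose from 8486 ± 761 to 15774 ± 3024 CPM (log2FC 0.89, FDR = 8.4e-06), *AY036118* from 4307 ± 395 to 7661 ± 1872 CPM (log2FC 0.83, FDR = 0.00015), *Tmsb4x* from 6638 ± 308 to 8469.8 ± 732 CPM (log2FC 0.35, FDR = 0.0061) and *Lars2* from 25295 ± 1667 to 31310.0 ± 1891 CPM (log2FC 0.31, FDR = 0.015), whose FDR was 0.069 without replicate 1 of Day 3 and 0.057 without replicate 3 of Day 5. Exons of *Actg1*, *Hsp90ab1*, *Ldha* and *Coro1a* overlap those of other genes.

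The 10 genes that rose with the smallest p were *Faah*, *Slc26a11*, *Syt11*, *Rnf19a*, *Slfn5*, *Slc9a9*, *Lax1*, *Utrn*, *H2-K1* and *Pear1*, with log2FC between 1.43 and 2.84. *Faah* had 62.4, 72.9 and 75.1 CPM in the Day 3 libraries and 299, 306 and 339 CPM in the Day 5 libraries (log2FC 2.17, SE 0.09, FDR = 1.4e-09). It encodes fatty acid amide hydrolase, the enzyme that breaks down the endocannabinoid anandamide. *Slc26a11* had 7.34, 8.91 and 8.67 CPM in the Day 3 libraries and 54.8, 55 and 69.1 CPM in the Day 5 libraries (log2FC 2.84, SE 0.14, FDR = 3.5e-09). It encodes an anion transporter, and its exons overlap those of *Sgsh*. For *Slfn5*, a member of the Schlafen family, the values were 12, 10.4 and 15.3 CPM on Day 3 and 90.8, 73.1 and 75.7 CPM on Day 5 (log2FC 2.66, SE 0.14, FDR = 4.5e-09). *Lax1*, a membrane adaptor that limits antigen receptor signaling, had 123, 115 and 109 CPM on Day 3 and 364, 299 and 352 CPM on Day 5 (log2FC 1.55, SE 0.08, FDR = 5.9e-09). The class I heavy chain gene *H2-K1* rose from 1056 ± 60.2 to 3084 ± 389.7 CPM (log2FC 1.55, FDR = 5.9e-09). Among the others, *Syt11*, a vesicle protein gene that shares exon sequence with *Rit1*, rose from 42.2 ± 1.54 to 136 ± 3.06 CPM (log2FC 1.69, FDR = 3.5e-09). The ubiquitin ligase *Rnf19a* rose from 106 ± 7.82 to 286 ± 3.41 CPM (log2FC 1.43, FDR = 4.5e-09), the endosomal sodium/proton exchanger *Slc9a9* from 24.3 ± 4.52 to 123 ± 14.5 CPM (log2FC 2.34, FDR = 5.4e-09), utrophin (*Utrn*) from 72.9 ± 3.51 to 229 ± 24.4 CPM (log2FC 1.65, FDR = 5.9e-09) and the receptor gene *Pear1* from 11.9 ± 0.905 to 48.7 ± 1.31 CPM (log2FC 2.04, FDR = 6.1e-09). All 3 Day 5 libraries lay above all 3 Day 3 libraries for each of the 10 genes, as the rule that named them required.

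Largest in fold among the higher genes were *Akap6*, *B3gat2* and *Mpp4*, all rare transcripts. *Akap6*, which encodes an A-kinase anchoring protein, had no count in any Day 3 library and 0.741, 1.11 and 2.29 CPM on Day 5, at least 9.02-fold higher (FDR = 0.00011). *B3gat2*, a glucuronyltransferase gene, had at most 1 count in a Day 3 library and 0.635, 0.762 and 1.67 CPM on Day 5, at least 6.66-fold higher (FDR = 0.0002). *Mpp4* had 0, 0.265 and 0 CPM on Day 3 and 1.01, 2.40 and 6.30 CPM on Day 5 (FDR = 0.0016), and its log2FC of 5.14 was 4.21 without replicate 3 of Day 5, while no Day 3 count remained without replicate 2 of Day 3. Exons of *B3gat2* overlap those of *Smap1* and exons of *Mpp4* those of another gene. Even on Day 5 none of them exceeded 6.30 CPM.

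The 10 genes with the smallest p among those that fell were *C1qbp*, *Gemin6*, *Ptma*, *Npm1*, *Cdt1*, *Uck2*, *Hspd1*, *Coq7*, *Dut* and *Ppid*. *C1qbp* had 283, 273 and 235 CPM in the Day 3 libraries and 40.5, 51.7 and 47.9 CPM in the Day 5 libraries (log2FC −2.50, SE 0.10, FDR = 1.4e-09). It encodes a mitochondrial matrix protein needed for mitochondrial translation, and its exons overlap those of *Rpain*. *Npm1* had 1964, 1849 and 1827 CPM in the Day 3 libraries and 655, 733 and 649 CPM in the Day 5 libraries (log2FC −1.47, SE 0.07, FDR = 3.5e-09). Nucleophosmin, its product, is a nucleolar chaperone. *Cdt1* had 103, 94.3 and 100.5 CPM in the Day 3 libraries and 22.9, 22.9 and 19.5 CPM in the Day 5 libraries (log2FC −2.19, SE 0.11, FDR = 4.5e-09). CDT1 is the licensing factor that helps to load the replicative helicase on origins. *Dut*, the enzyme that keeps uracil out of DNA, had 452, 450.4 and 455 CPM on Day 3 and 71.1, 108 and 95.7 CPM on Day 5 (log2FC −2.30, SE 0.12, FDR = 4.6e-09). Further falls were those of *Gemin6*, a part of the SMN complex that assembles spliceosomal particles, from 64.1 ± 1.51 to 15.2 ± 1.37 CPM (log2FC −2.07, FDR = 3.5e-09), and of *Ptma*, the acidic chromatin protein prothymosin alpha, from 1957 ± 67.5 to 749 ± 54.5 CPM (log2FC −1.39, FDR = 3.5e-09). The pyrimidine salvage kinase *Uck2* fell from 212 ± 23.3 to 50.05 ± 3.45 CPM (log2FC −2.08, FDR = 4.5e-09), the mitochondrial chaperonin *Hspd1* from 751 ± 85 to 176 ± 17 CPM (log2FC −2.10, FDR = 4.5e-09), the ubiquinone synthesis gene *Coq7* from 59.6 ± 1.23 to 15.3 ± 0.240 CPM (log2FC −1.96, FDR = 4.5e-09) and the peptidyl-prolyl isomerase *Ppid* from 246 ± 9.08 to 85.7 ± 4.16 CPM (log2FC −1.52, FDR = 5.4e-09). *Hspd1* shares exon sequence with *Hspe1*, *Gemin6* with *Dhx57* and *Ppid* with *Etfdh*. For each of the 10, the Day 3 libraries lay entirely above the Day 5 libraries, again as their rule required.

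In fold, *Iftap*, *Klhl23* and *Chaf1a* led. *Iftap* had 2.32, 3.66 and 1.80 CPM on Day 3 and at most 2 counts in a Day 5 library, a fall of at least 15.9-fold (FDR = 8.7e-06), but its exons overlap those of *Rag1* and *Rag2*, and without strand the reads cannot be told apart. *Klhl23* had 2.90, 2.76 and 2.84 CPM and then 0.0529, 0.234 and 0.208 CPM (log2FC −4.06, FDR = 1.4e-05). *Chaf1a*, the large subunit of the chromatin assembly factor that places histones behind the replication fork, had 90.6, 88.1 and 86.8 CPM on Day 3 and 3.02, 8.79 and 5.52 CPM on Day 5 (log2FC −3.95, SE 0.32, FDR = 8.8e-08). Its exons overlap those of *Ubxn6*.

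**Figure D2:**
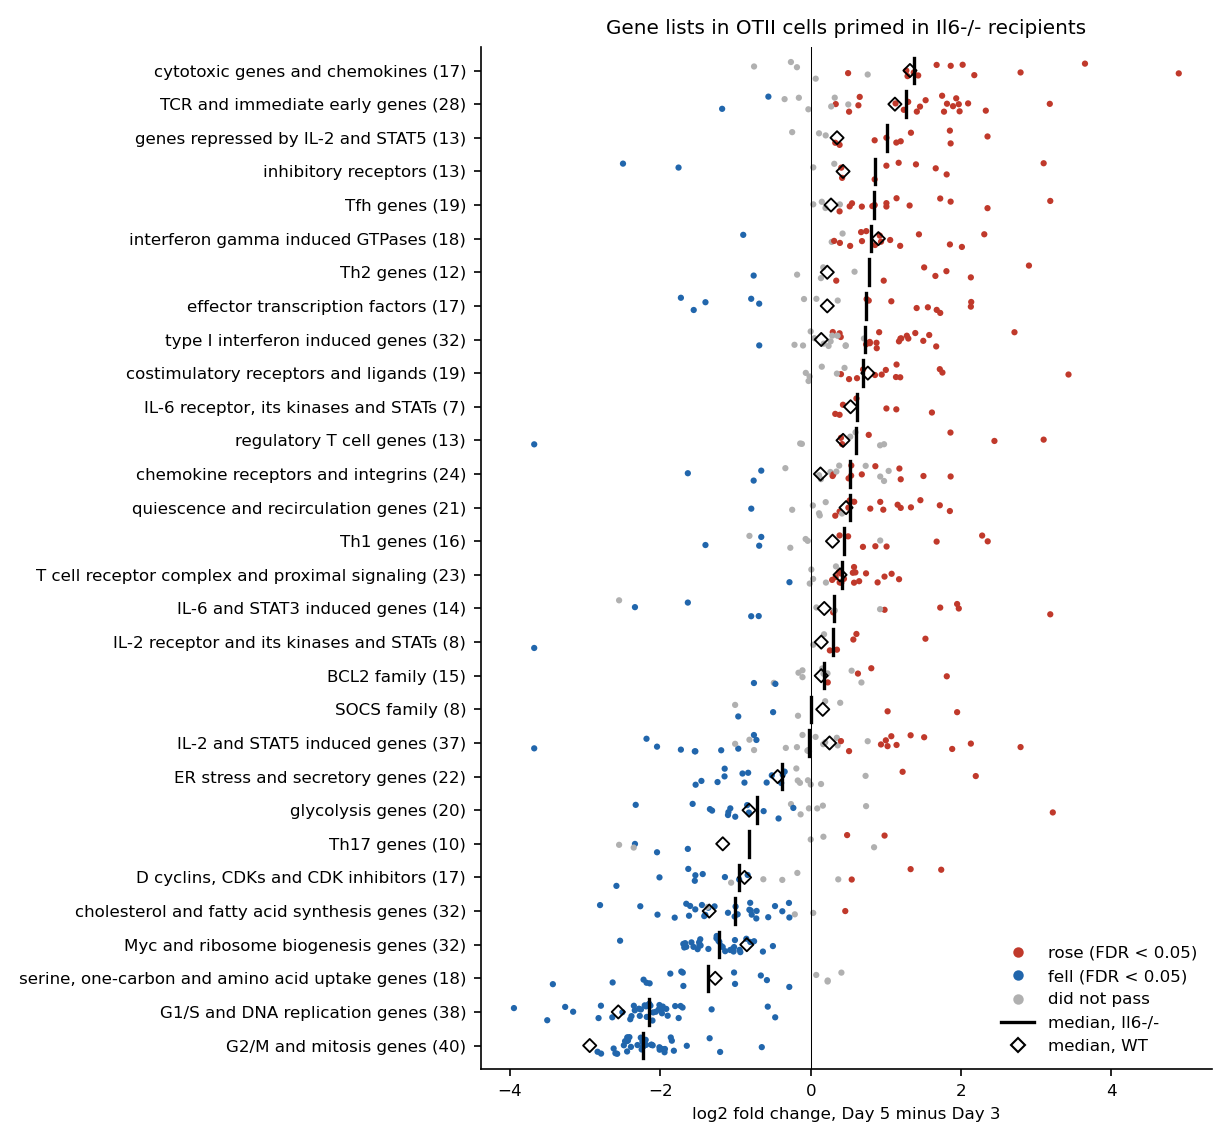
Each point is a tested member of a gene list, placed by its log2FC (Day 5 minus Day 3 in Il6-/- recipients) and colored by whether it rose, fell or did not pass an FDR of 0.05. Bars give the median of a list in Il6-/- recipients and diamonds that in WT recipients, with the number of members tested in parentheses. The G2/M list had the lowest median, −2.23, and the list of cytotoxic genes and chemokines the highest, 1.37.

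Cell cycle genes fell without an exception among those listed. All 38 G1/S and DNA replication genes and all 40 G2/M and mitosis genes were tested, and each fell at an FDR of 0.05 (30.1% of all genes tested fell). At least 2-fold falls were reached by 36 and 39 of them, and the median log2FC was −2.15 (range −3.95 to −0.47) and −2.23 (range −2.84 to −0.65), against 0.09 over all genes. In the fits that each left out 1 Il6-/- library, 37 or 38 and 39 or 40 genes fell. *Mki67* had 492, 441 and 426 CPM in the Day 3 libraries and 61.8, 147 and 108 CPM in the Day 5 libraries (log2FC −2.10, SE 0.25, FDR = 3.6e-06). Its product Ki-67 marks dividing cells. The Day 5 libraries were uneven, with replicate 1 the lowest and replicate 2 the highest, yet each stood far below Day 3. *Pcna* had 559, 603 and 624 CPM in the Day 3 libraries and 150.2, 204 and 194 CPM in the Day 5 libraries (log2FC −1.70, SE 0.10, FDR = 1e-08). It encodes the sliding clamp of DNA polymerases, and its exons overlap those of *AV099323*. The clamp loader subunit *Rfc4* fell from 145 ± 8.23 to 32.6 ± 8.47 CPM (log2FC −2.16, FDR = 2e-08) with an exon overlap with *Eif4a2*. Of the mitosis genes, topoisomerase *Top2a* fell from 796 ± 31.8 to 166 ± 57 CPM (log2FC −2.26, FDR = 1.2e-07), the checkpoint kinase *Bub1* from 133 ± 4.80 to 21.7 ± 8.42 CPM (log2FC −2.62, FDR = 1.4e-07) and the kinase *Melk* from 105 ± 7.43 to 22.5 ± 7.26 CPM (log2FC −2.23, FDR = 1.4e-07). In all 3 of these genes the highest Day 5 library was again replicate 2.

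The promoters of such genes carry known sequence words, E2F words in genes of the G1/S transition and the CHR element with CCAAT boxes in genes of mitosis. To show the DNA before the genes that fell together, the bases before the annotated start were read from GRCm39 with GENCODE vM39, for the 2 members of each list with the smallest p that hold the words and whose window has no annotated exon. Members on a chromosome that the rule left out were passed over. Each sequence runs 5′ to 3′ on the strand of the gene over the 250 bases before its start. Capitals mark the E2F words, which were TTGGCGC, the form TTCCCGC, the form TTCGCGC and the form TTGCCGC, in *Mcm4* (chr16, reverse strand, chr16:15455265-15455514) and *Chaf1b* (chr16, forward strand, chr16:93680518-93680767), and the CHR element TTTGAA and the CCAAT box in *Aurkb* (chr11, forward strand, chr11:68936217-68936466) and *Ccnb2* (chr9, reverse strand, chr9:70328875-70329124), on either strand.
Mcm4: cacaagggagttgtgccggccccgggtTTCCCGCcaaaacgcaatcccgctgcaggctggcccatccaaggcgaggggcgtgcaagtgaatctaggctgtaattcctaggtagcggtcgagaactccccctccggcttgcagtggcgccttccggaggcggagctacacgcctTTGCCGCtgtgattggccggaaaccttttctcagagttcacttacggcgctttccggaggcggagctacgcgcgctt
Chaf1b: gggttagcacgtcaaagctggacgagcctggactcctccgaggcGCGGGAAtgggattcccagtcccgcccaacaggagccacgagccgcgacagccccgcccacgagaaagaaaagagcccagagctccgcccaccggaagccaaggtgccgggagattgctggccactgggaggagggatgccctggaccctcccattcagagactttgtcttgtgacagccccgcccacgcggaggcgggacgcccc
Aurkb: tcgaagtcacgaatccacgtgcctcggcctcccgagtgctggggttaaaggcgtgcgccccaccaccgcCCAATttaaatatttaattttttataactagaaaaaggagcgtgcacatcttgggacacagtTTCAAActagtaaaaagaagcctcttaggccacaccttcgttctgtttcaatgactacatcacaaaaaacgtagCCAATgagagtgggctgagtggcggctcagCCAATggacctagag
Ccnb2: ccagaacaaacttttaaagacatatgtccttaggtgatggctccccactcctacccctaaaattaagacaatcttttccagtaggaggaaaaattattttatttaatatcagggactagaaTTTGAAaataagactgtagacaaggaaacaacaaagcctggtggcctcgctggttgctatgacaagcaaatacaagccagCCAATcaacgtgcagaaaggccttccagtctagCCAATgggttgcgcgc
*Mcm4* and *Chaf1b* encode a subunit of the replicative helicase and of the chromatin assembly factor, and they fell from 639 ± 19.9 to 161 ± 46.1 CPM (log2FC −1.99, FDR = 6e-08) and from 146 ± 2.67 to 41.9 ± 10.6 CPM (log2FC −1.80, FDR = 8.5e-08). The mitotic kinase *Aurkb* fell from 236 ± 4.62 to 51.9 ± 25.6 CPM (log2FC −2.19, FDR = 3.8e-06), and *Ccnb2*, a B-type cyclin, from 381 ± 16.4 to 96.3 ± 44 CPM (log2FC −1.99, FDR = 5.8e-05). Over the whole lists, an E2F word stood before 23.7% of the G1/S genes, 12.2% of all genes tested and 7.4% of all genes with a window. The CHR element stood before 30% of the G2/M genes, 12.8% of genes tested and 16.5% of all genes. A CCAAT box stood before 52.6% of the G1/S and 50% of the G2/M genes, 35.8% of genes tested and 33.7% of all genes. It was not particular to cell cycle lists, since it stood before 65.6% of the cholesterol and fatty acid synthesis genes. On the other strand this box reads ATTGG, which can share letters with TTGGCGC. A match is only a description of these letters.

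The D cyclins did not move as one. The list of D cyclins, CDKs and CDK inhibitors had 17 tested members of 19, of which 3 rose and 9 fell (median log2FC −0.95), against 30.4% and 30.1% of all genes. *Ccnd2* had 252, 187 and 193 CPM in the Day 3 libraries and 550.1, 480.5 and 557 CPM in the Day 5 libraries (log2FC 1.33, SE 0.12, FDR = 1.7e-07). The days did not overlap for this gene, which encodes cyclin D2. *Ccnd3*, cyclin D3, moved the other way, from 465, 417 and 432 CPM to 151, 166 and 137 CPM (log2FC −1.53, SE 0.10, FDR = 1.4e-08), and *Cdk4*, the kinase that both activate, fell from 471 ± 8.92 to 213 ± 17.3 CPM (log2FC −1.14, FDR = 4e-08). The CDK inhibitor p27 (*Cdkn1b*) rose from 18 ± 2.85 to 59.98 ± 16.2 CPM (log2FC 1.74, FDR = 5.8e-07). Of the retinoblastoma relatives, *Rbl1* fell from 118 ± 2.87 to 65.9 ± 1.36 CPM (log2FC −0.84, FDR = 1e-07) and *Rbl2* rose from 59.3 ± 2.86 to 86.6 ± 10.2 CPM (log2FC 0.55, FDR = 8.9e-05). Exons of *Ccnd2*, *Ccnd3*, *Cdk4* and *Rbl2* overlap those of *9330179D12Rik*, *Bysl*, *Tspan31* and *Aktip*.

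Genes of growth and biosynthesis fell along with those of division. *Myc*, the transcription factor that drives ribosome production, had 81.4, 78.3 and 64.6 CPM on Day 3 and 47.8, 55.6 and 40.9 CPM on Day 5 (log2FC −0.64, SE 0.13, FDR = 0.00081). All 32 genes of the Myc and ribosome biogenesis list fell, 25 of them at least 2-fold (median log2FC −1.22), where 30.1% of all genes fell. The box C/D ribonucleoprotein genes *Nop58* and *Nop56* fell from 309.8 ± 30.03 to 98.4 ± 10.5 CPM (log2FC −1.66, FDR = 1.5e-08) and from 427 ± 47.8 to 153 ± 11.3 CPM (log2FC −1.48, FDR = 1.8e-08). Of 20 genes of serine, one-carbon and amino acid uptake, 18 were tested, 14 fell and none rose (median −1.36). *Slc7a5* had 136, 116 and 125 CPM in the Day 3 libraries and 12.4, 13.6 and 9.11 CPM in the Day 5 libraries (log2FC −3.43, SE 0.18, FDR = 5.9e-09). This gene of a large neutral amino acid transporter had the lowest log2FC on that list. The serine hydroxymethyltransferases *Shmt1* and *Shmt2*, which feed carbon from serine into folate, fell from 136 ± 13.9 to 29.9 ± 4.18 CPM (log2FC −2.18, FDR = 1.4e-08) and from 266 ± 9.45 to 73 ± 17.6 CPM (log2FC −1.87, FDR = 2.9e-08).

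Of 32 cholesterol and fatty acid synthesis genes, 28 fell and 1 rose (median log2FC −1.01), where 30.1% of all genes fell and 30.4% rose. *Fasn*, fatty acid synthase, had 423, 337 and 354 CPM on Day 3 and 86.3, 138 and 94.3 CPM on Day 5 (log2FC −1.81, SE 0.16, FDR = 1.8e-07), *Fads1*, a fatty acid desaturase, fell from 45.4 ± 3.27 to 14.8 ± 2.86 CPM (log2FC −1.62, FDR = 1e-07), and *Sqle*, squalene epoxidase, from 95.4 ± 3.49 to 33 ± 9.89 CPM (log2FC −1.54, FDR = 6e-07). The single riser was the sterol reductase *Tm7sf2*, from 14.6 ± 1.77 to 20.1 ± 2.49 CPM (log2FC 0.46, FDR = 0.0065), whose exons overlap those of *Vps51*. Glycolysis was less uniform, with 13 of 20 genes lower and 1 higher (median −0.72). The enolase gene *Eno1* fell from 2034 ± 39.5 to 953 ± 129 CPM (log2FC −1.09, FDR = 6.9e-08), the lactate and pyruvate carrier *Slc16a1* from 104 ± 4.29 to 34.9 ± 8.14 CPM (log2FC −1.57, FDR = 1.6e-07) and hexokinase 2 (*Hk2*) from 27.7 ± 2.44 to 5.51 ± 1.39 CPM (log2FC −2.33, FDR = 2.7e-07). *Aldoc*, an aldolase, rose from 1.64, 1.96 and 2.99 CPM to 12.2, 20.1 and 29.6 CPM (log2FC 3.22, SE 0.45, FDR = 2e-05). Of 22 ER stress and secretory genes, 13 fell and 2 rose (median −0.38). The chaperone genes *Hsp90b1*, *Canx* and *Sdf2l1* fell (log2FC −1.45, −1.15 and −1.53), whereas *Dnajb9* and *Ddit3* rose (log2FC 2.20 and 1.22).

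The receptor for IL-2 was examined next, since the study asked how IL-6 bears on IL-2 signaling in these cells. *Il2ra* had 96.7, 62.5 and 81.3 CPM in the Day 3 libraries and 7.67, 7.79 and 3.38 CPM in the Day 5 libraries (log2FC −3.68, SE 0.29, FDR = 7.4e-08). The gene lies on the forward strand of GRCm39 at chr2:11647618-11698004. The lowest Day 3 library thus held 62.5 CPM and the highest Day 5 library 7.79 CPM, and *Il2ra* had the lowest log2FC of the 37 tested IL-2- and STAT5-induced genes. The other chains moved little and upward. *Il2rb*, the β chain, had 607, 592 and 613 CPM on Day 3 and 692, 770.0 and 699 CPM on Day 5 (log2FC 0.25, SE 0.07, FDR = 0.0065), and its FDR was 0.055 without replicate 2 of Day 5 and, once counts were offset for GC content, 0.24 (log2FC 0.10). The common γ chain *Il2rg* rose from 1051 ± 35.4 to 1338 ± 68.9 CPM (log2FC 0.35, FDR = 0.00021), and the kinases *Jak1* and *Jak3*, which bind these chains, from 543 ± 24.9 to 827 ± 102 CPM (log2FC 0.61, FDR = 3.5e-05) and from 214 ± 15.1 to 317 ± 23.3 CPM (log2FC 0.57, FDR = 1.8e-05). *Il2* itself stayed rare, at 0.686, 1.01 and 1.75 CPM on Day 3 and 3.23, 4.16 and 2.65 CPM on Day 5 (log2FC 1.53, SE 0.37, FDR = 0.0023).

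**Figure D3:**
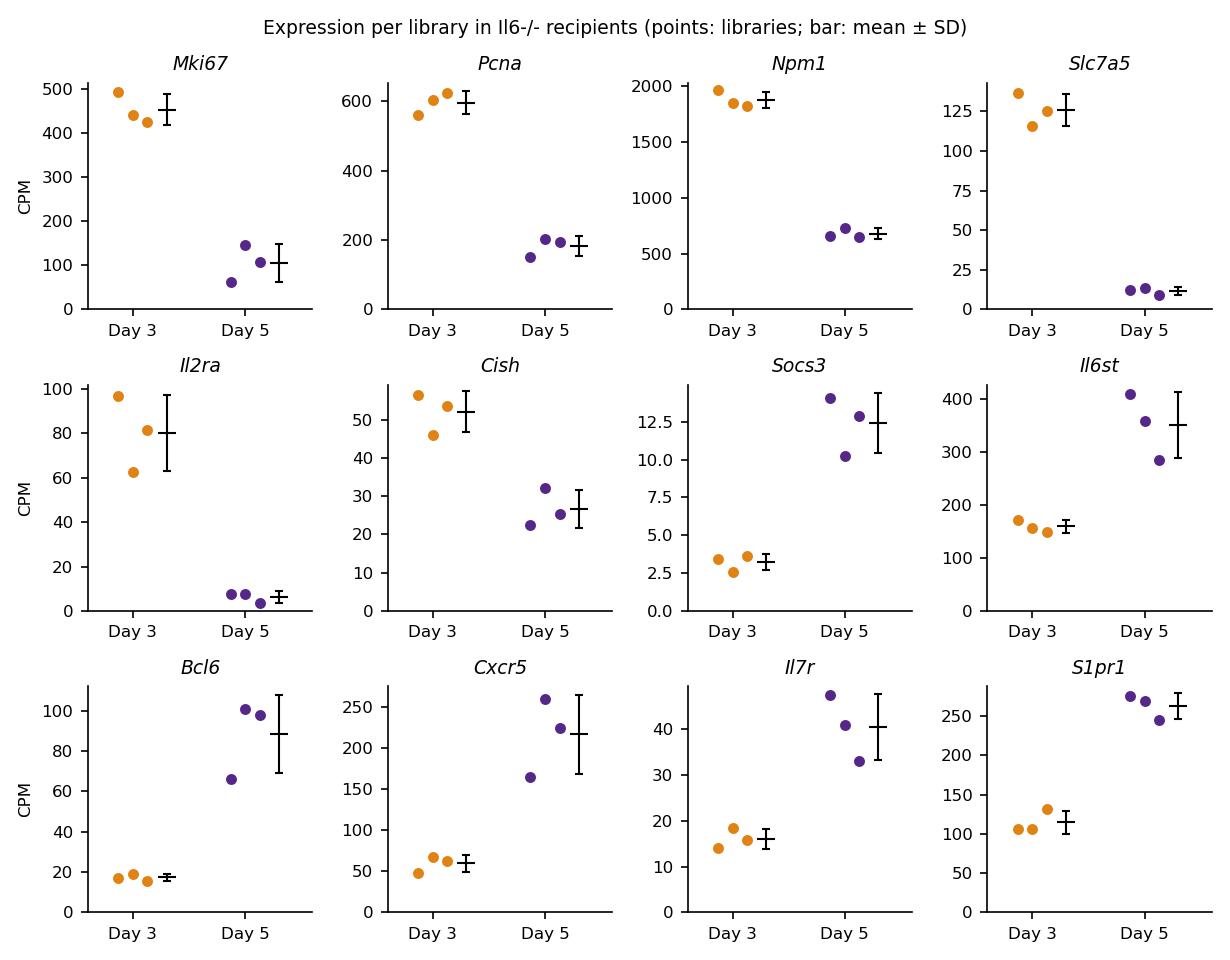
CPM of 12 named genes in each Il6-/- library on Day 3 (orange) and Day 5 (purple), with the mean ± SD of 3 libraries beside the points and each y axis starting at 0. *Mki67*, *Pcna*, *Npm1*, *Slc7a5*, *Il2ra* and *Cish* were lower in every Day 5 library, and *Socs3*, *Il6st*, *Bcl6*, *Cxcr5*, *Il7r* and *S1pr1* higher.

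Of 37 tested IL-2- and STAT5-induced genes, 12 rose and 10 fell, shares near the 30.4% and 30.1% of all genes (median log2FC −0.02, and 0.13 with no scaling). *Cish* had 56.6, 46.1 and 53.5 CPM in the Day 3 libraries and 22.4, 32.2 and 25.5 CPM in the Day 5 libraries (log2FC −0.96, SE 0.17, FDR = 0.00014). It encodes a STAT5-induced feedback inhibitor, and the Day 5 libraries all lay below those of Day 3. The aryl hydrocarbon receptor *Ahr* fell from 92 ± 3.27 to 22.3 ± 4.43 CPM (log2FC −2.04, FDR = 4.5e-07). On the rising side stood the IL-10 receptor chain *Il10ra* (log2FC 1.88, FDR = 5.6e-08), the costimulatory receptor *Icos* (log2FC 1.14, FDR = 8.7e-08) and *Ccnd2*. Of the 13 genes that IL-2 and STAT5 repress, 10 rose, none fell and 3 did not pass the test (median log2FC 1.01, against 30.4% of all genes rising). Of the 3, *Klf2*, a transcription factor that sustains quiescence and egress from lymph nodes, had 28.7, 32.1 and 41.2 CPM on Day 3 and 33.5, 23.7 and 28.8 CPM on Day 5, and the days overlapped (log2FC −0.25, FDR = 0.45). *Ccr7*, the receptor that holds T cells in the lymph node, overlapped too, at 496, 492 and 532 and 728, 484 and 428 CPM (log2FC 0.11, FDR = 0.57). Among those that rose, *Il7r*, the receptor of the survival cytokine IL-7, had 14, 18.4 and 15.7 CPM on Day 3 and 47.4, 40.9 and 32.9 CPM on Day 5 (log2FC 1.33, SE 0.15, FDR = 2.5e-06), with no overlap.

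The receptor for IL-6 rose with time in Il6-/- recipients. *Il6ra* had 65.4, 60.3 and 68.8 CPM in the Day 3 libraries and 139.9, 116 and 135 CPM in the Day 5 libraries (log2FC 1.01, SE 0.09, FDR = 2.3e-07). *Il6st* had 172, 157 and 149 CPM in the Day 3 libraries and 409, 357 and 284 CPM in the Day 5 libraries (log2FC 1.14, SE 0.12, FDR = 1.2e-06). In both genes each Day 5 library lay above each Day 3 library, and replicate 3 was the lowest of Day 5 for *Il6st*. All 7 tested genes of the IL-6 receptor, its kinases and its STATs rose (median log2FC 0.61, 1 of 8 listed genes not tested), with *Jak2* rising most from 30.1 ± 2.27 to 92.2 ± 11.6 CPM (log2FC 1.61, FDR = 1.5e-08). Among all genes, 30.4% rose. In WT recipients 6 of these 7 genes rose (median log2FC 0.53), and the change of none of them differed between the recipients at an FDR of 0.05. *Socs3* had 3.43, 2.60 and 3.60 CPM in the Day 3 libraries and 14.1, 10.3 and 12.9 CPM in the Day 5 libraries (log2FC 1.95, SE 0.20, FDR = 6.9e-07). This feedback inhibitor, which binds gp130 and is induced by STAT3, was low on Day 3 and higher in all Day 5 libraries. Of the 14 tested IL-6- and STAT3-induced genes, 6 rose and 4 fell (median 0.31), beside 30.4% and 30.1% of all genes. *Maf*, a transcription factor of Tfh and IL-10-producing cells, rose from 31.3 ± 10.3 to 104 ± 23.8 CPM (log2FC 1.72, FDR = 2.8e-06), while the chemokine receptor *Ccr6* fell from 78.4 ± 12.1 to 25.2 ± 4.67 CPM (log2FC −1.63, FDR = 5.9e-07) and *Irf4* from 156 ± 5.04 to 90.1 ± 16.7 CPM (log2FC −0.79, FDR = 3.1e-05).

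Of the 8 members of the SOCS family, 2 rose and 2 fell, against 30.4% and 30.1% of all genes (3 rose without replicate 2 of Day 5). Beside *Socs3*, *Socs5* rose from 3.05 ± 0.736 to 6.22 ± 0.999 CPM (log2FC 1.02, FDR = 0.0021), and beside *Cish*, *Socs6* fell from 22.4 ± 3.70 to 15.9 ± 1.96 CPM (log2FC −0.50, FDR = 0.011). The fall of *Socs6* had an FDR of 0.065 without replicate 1 of Day 3 and 0.05 without replicate 3 of Day 5. *Socs1*, an inhibitor of the receptors for IL-2 and interferons, had 14.7, 16.4 and 17.7 CPM on Day 3 and 18.5, 16.9 and 20.4 CPM on Day 5, with overlap between the days (log2FC 0.19, SE 0.16, FDR = 0.32). *Socs2* was low throughout, at 2.38, 1.54 and 1.85 and 1.06, 1.35 and 0.468 CPM (log2FC −1.01, SE 0.55, FDR = 0.12), and shares exon sequence with *2310039L15Rik* and *5730420D15Rik*.

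Most Tfh genes rose. Of 20 listed genes, 19 were tested, 15 rose and none fell (median log2FC 0.84), and 17 rose without replicate 1 of Day 5. Of all genes tested, 30.4% rose. *Bcl6* had 17, 19.3 and 15.7 CPM in the Day 3 libraries and 66.2, 101 and 97.9 CPM in the Day 5 libraries (log2FC 2.35, SE 0.17, FDR = 2.8e-08). The gene, at chr16:23783802-23807602 on the reverse strand, encodes the repressor that defines Tfh cells. *Cxcr5* had 47.7, 67.7 and 63.1 CPM in the Day 3 libraries and 165, 259.7 and 225 CPM in the Day 5 libraries (log2FC 1.86, SE 0.17, FDR = 2.1e-07). It encodes the receptor that guides cells to B-cell follicles, and its exons overlap those of *Bcl9l*. The gap between the days was complete for both, with replicate 1 the lowest library of Day 5. *Il21* had 3.70, 3.82 and 3.89 CPM in the Day 3 libraries and 12.2, 41.4 and 50.4 CPM in the Day 5 libraries (log2FC 3.19, SE 0.45, FDR = 2.1e-05). For this cytokine, through which Tfh cells act on B cells, replicate 1 was again the lowest of Day 5 but above all of Day 3. *Icos* had 278, 292 and 334 CPM on Day 3 and 638, 648 and 708 CPM on Day 5 (log2FC 1.14, SE 0.09, FDR = 8.7e-08). *Pdcd1*, which encodes PD-1, had 284, 259.8 and 253 CPM and 205, 299.6 and 311 CPM, with Day 5 libraries on both sides of Day 3 (log2FC 0.03, FDR = 0.86).

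Type 2 cytokines other than IL-4 were not detected beyond 1 count in the 6 libraries together. *Il5* had no count in any of the 6 libraries and *Il13* had 1 count in all, and a count of 0 allows a share of up to 1.86e-05% of the shallowest of these libraries (3 counts, for counting error only). The same held for *Il9*, *Il31* and *Il3*. *Il4* had 2.38, 2.86 and 8.01 CPM on Day 3 and 6.30, 12.3 and 23.5 CPM on Day 5 (log2FC 1.66, SE 0.46, FDR = 0.0060). The days overlapped, since replicate 3 of Day 3 lay above replicate 1 of Day 5, and without replicate 3 of Day 5 the log2FC was 1.06 (FDR = 0.06). Exons of *Il4* overlap those of *Kif3a*. *Gata3*, the transcription factor of Th2 cells, had 214, 198 and 229.5 CPM and then 243, 284 and 285 CPM (log2FC 0.34, SE 0.09, FDR = 0.0045), a complete but small separation. Of 22 Th2 genes, 12 were tested, 7 rose and 1 fell (median 0.78), against 30.4% and 30.1% of all genes. *Crlf2*, a chain of the TSLP receptor, rose from 15.1 ± 1.90 to 52.6 ± 4.48 CPM (log2FC 1.81, FDR = 5.9e-08), the IL-25 receptor chain *Il17rb* from 52 ± 1.98 to 102 ± 12.1 CPM (log2FC 0.97, FDR = 5.8e-07) and *Ecm1* from 3.79 ± 0.194 to 10.8 ± 1.54 CPM (log2FC 1.51, FDR = 7.8e-06), while *Ccr8*, a chemokine receptor of Th2 cells, fell from 25.3 ± 5.69 to 14.9 ± 2.13 CPM (log2FC −0.76, FDR = 0.0024). Exons of *Il17rb* overlap those of *Actr8* and *Chdh*.

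Among 16 tested Th1 genes, 8 rose and 3 fell (median log2FC 0.44), where 30.4% of all genes rose and 30.1% fell. *Tbx21*, which encodes T-bet, had 12.1, 16.3 and 14.7 CPM on Day 3 and 4.55, 6.50 and 5.31 CPM on Day 5 (log2FC −1.40, SE 0.27, FDR = 0.00043), with every Day 5 library below Day 3. *Ifng* moved the opposite way from a low level, with 0.950, 1.01 and 0.995 CPM and then 6.93, 3.05 and 4.42 CPM (log2FC 2.28, SE 0.53, FDR = 0.0017). *Cxcr3*, a chemokine receptor induced by T-bet, had 44.4, 62.6 and 53.7 and 39.4, 39.8 and 22.7 CPM (log2FC −0.66, SE 0.26, FDR = 0.042), and its FDR was 0.14, 0.083 and 0.19 without replicate 2 or 3 of Day 3 or replicate 3 of Day 5. *Stat4* and *Ifngr2* rose by a log2FC of 0.69 and 1.01, and *Runx3* fell (log2FC −0.69). The Th1 counts rested partly on single libraries, with 5 up and 2 down without replicate 2 of Day 3 and 5 up and 5 down without replicate 2 of Day 5. The 10 tested Th17 genes had a median of −0.82, with 3 lower, *Ahr* and *Ccr6* among them, and 2 higher, *Hif1a* (log2FC 0.48, FDR = 6e-05) and *Rora* (log2FC 0.98, FDR = 0.0024). Over all genes 30.1% were lower and 30.4% higher. *Foxp3*, the factor of regulatory T cells, stayed low at 5.81, 3.92 and 5.50 CPM on Day 3 and 6.62, 3.98 and 3.44 CPM on Day 5 (log2FC −0.12, SE 0.35, FDR = 0.79), and its exons overlap those of *Flicr* and other genes. Of 13 tested regulatory T cell genes, 6 rose and 1 fell, the latter being *Il2ra*. The risers included the semaphorin receptor *Nrp1* (log2FC 1.86, FDR = 1.5e-06), *Ikzf2* (log2FC 0.77, FDR = 1.8e-05) and *Ikzf4* (log2FC 2.44, FDR = 3.6e-05).

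Homing and quiescence genes rose for the most part. Of 21 genes, 14 rose and 1 fell (median log2FC 0.52), against 30.4% and 30.1% of all genes. *S1pr1* had 106, 106 and 131 CPM in the Day 3 libraries and 276, 269 and 245 CPM in the Day 5 libraries (log2FC 1.20, SE 0.10, FDR = 1.2e-07). It encodes the receptor through which T cells leave lymph nodes. *Tcf7*, which encodes the memory-associated factor TCF-1, was abundant on both days, at 1123, 1189.8 and 1144 CPM and 1562, 1475 and 1475 CPM (log2FC 0.38, SE 0.07, FDR = 0.00019). *Slfn2*, a Schlafen gene needed for T-cell quiescence, rose from 414 ± 14.6 to 809 ± 29.2 CPM (log2FC 0.97, FDR = 1.9e-08), and *Rasgrp2*, an activator of the integrin switch Rap1, fell from 129 ± 18.5 to 74.5 ± 9.30 CPM (log2FC −0.79, FDR = 0.00017). Of 24 tested chemokine receptors and integrins of 28, 11 rose and 3 fell, and *Itgb1*, the β1 integrin, rose from 167 ± 11.7 to 472 ± 20.1 CPM (log2FC 1.50, FDR = 8.6e-08). Of 17 effector transcription factors, 9 rose and 5 fell, with *Hopx* (log2FC 1.56, FDR = 1.3e-06) and *Klf6* (log2FC 1.41, FDR = 4.6e-06) among the former and the repressor *Zbtb32* (log2FC −1.56, FDR = 0.00017) among the latter.

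Most genes of both interferon-induced lists rose. Of 32 type I interferon-induced genes, 19 rose, 1 fell and 12 did not pass the test (median log2FC 0.72), with 15 to 20 rising when 1 of the 6 libraries was left out. Over all genes, 30.4% rose and 30.1% fell. *Irf7* had 26.6, 22 and 31.8 CPM in the Day 3 libraries and 76.8, 79.5 and 70.9 CPM in the Day 5 libraries (log2FC 1.50, SE 0.12, FDR = 6.4e-08). It encodes a transcription factor that amplifies interferon production, and its exons overlap those of *Phrf1*. All Day 5 libraries exceeded all Day 3 libraries by a wide margin. *Ifi27l2a* rose from 453 ± 36.1 to 1352 ± 288 CPM (log2FC 1.58, FDR = 1.4e-07) and *Irf9*, the DNA-binding part of the factor ISGF3, from 71.6 ± 5.13 to 135 ± 7.57 CPM (log2FC 0.91, FDR = 2.9e-07), whereas *Bst2*, which tethers virions to cells, fell from 45.4 ± 3.00 to 28.3 ± 2.31 CPM (log2FC −0.68, FDR = 0.00011). Of 18 tested interferon gamma-induced GTPases and related factors, 15 rose and 1 fell (median 0.80). *Irf1* had 114, 123 and 127 CPM on Day 3 and 239.7, 219 and 237 CPM on Day 5 (log2FC 0.94, SE 0.07, FDR = 7.8e-08), and *Irf8* fell from 119.9 ± 19.6 to 64.3 ± 5.35 CPM (log2FC −0.90, FDR = 2.9e-05). The guanylate-binding protein genes *Gbp8* and *Gbp9* rose from 16.1 ± 2.65 to 64.8 ± 18.7 CPM (log2FC 2.01, FDR = 6.3e-07) and from 19.96 ± 7.30 to 72.2 ± 14.8 CPM (log2FC 1.85, FDR = 2.2e-06). They overlap each other and *Gbp4*, so reads may have been split between near-identical copies.

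Genes that follow T-cell receptor signaling rose for the most part. Of 28 TCR-induced and immediate early genes, 20 rose and 2 fell (median log2FC 1.27), against 30.4% and 30.1% of all genes. *Egr2* had 20.1, 24.9 and 25.4 CPM in the Day 3 libraries and 88, 99.8 and 90.2 CPM in the Day 5 libraries (log2FC 1.98, SE 0.12, FDR = 1.3e-08). *Egr3* had 8.55, 11.8 and 9.24 CPM in the Day 3 libraries and 39.9, 35.6 and 37.8 CPM in the Day 5 libraries (log2FC 1.94, SE 0.14, FDR = 3.3e-08). Both encode zinc finger factors that follow TCR signaling, and their libraries were even within each day. *Dusp6*, a phosphatase of ERK, rose from 32.3 ± 2.29 to 93.1 ± 7.94 CPM (log2FC 1.53, FDR = 2.3e-08), and *Dusp5* and *Dusp4*, phosphatases of the same family, fell from 15.2 ± 1.10 to 6.69 ± 0.792 CPM (log2FC −1.18, FDR = 0.0015) and from 42.6 ± 3.52 to 28.8 ± 1.29 CPM (log2FC −0.56, FDR = 0.0046). *Junb* was less even, at 252, 236 and 200.1 CPM on Day 3 and 981, 532 and 1183 CPM on Day 5 (log2FC 1.97, SE 0.25, FDR = 7.7e-06), with replicate 2 the lowest of Day 5. Of the 5 tested heat shock genes used as a check of handling, 3 rose and 2 fell. *Hspa1a* had 7.92, 15.3 and 7.20 CPM on Day 3 and 232, 32.4 and 186 CPM on Day 5 (log2FC 3.89, FDR = 0.0028), *Hspa1b* 24.3, 59.8 and 32.2 and 649, 98.7 and 482 CPM (log2FC 3.40, FDR = 0.0054), and *Dnajb1* 149.8, 148 and 138 and 304, 168 and 268 CPM (log2FC 0.77, FDR = 0.0013). In these 3, replicate 2 was again the lowest of Day 5. *Hsph1* fell from 267, 192 and 193 to 67.6, 69.3 and 85.3 CPM (log2FC −1.55, FDR = 1e-06) and *Dnaja1* from 398, 361 and 365 to 237, 235 and 256 CPM (log2FC −0.63, FDR = 7.6e-06), with replicates 1 and 2 of Day 5 nearly level. The 6 heat shock genes summed to between 736 and 848 CPM on Day 3 and to 1490, 604 and 1277 CPM in replicates 1, 2 and 3 of Day 5. Their part in the immediate early genes was not tested, and without replicate 1, 2 or 3 of Day 5 the numbers of these genes that rose were 19, 21 and 16.

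Most genes of the receptor complex and its signaling rose. Of 23 genes of the TCR complex and its proximal signaling, 17 rose and 1 fell (median log2FC 0.41), where 30.4% of all genes rose and 30.1% fell. *Cd3g* had 616, 633 and 629 CPM on Day 3 and 1573, 1166 and 1504 CPM on Day 5 (log2FC 1.18, SE 0.10, FDR = 1.2e-07), and *Cd3d* and *Cd247* rose from 528 ± 23.3 to 1113 ± 137 CPM (log2FC 1.08, FDR = 2e-07) and from 508 ± 27.1 to 1004 ± 48.5 CPM (log2FC 0.98, FDR = 7.5e-08). The phosphatase SHP-1 (*Ptpn6*) fell from 724 ± 16.1 to 595 ± 36.6 CPM (log2FC −0.28, FDR = 0.0026). Of 13 tested inhibitory receptors, 9 rose and 2 fell (median 0.85). *Vsir*, which encodes VISTA, a receptor of resting T cells, rose from 53.5 ± 11.3 to 169 ± 10.9 CPM (log2FC 1.66, FDR = 3.9e-08), *Cd200* from 159 ± 6.01 to 320.4 ± 35 CPM (log2FC 1.01, FDR = 3e-07) and *Nt5e*, the ecto-enzyme CD73 that makes adenosine, from 58.3 ± 8.05 to 154 ± 18.9 CPM (log2FC 1.40, FDR = 5.5e-07). *Havcr2* (TIM-3) and the collagen receptor *Lair1* fell from 3.82 ± 1.49 to 0.672 ± 0.0884 CPM (log2FC −2.50, FDR = 9.3e-05) and from 13 ± 3.02 to 3.86 ± 1.73 CPM (log2FC −1.76, FDR = 0.0013). Of 19 tested costimulatory receptors and ligands, 13 rose and none fell (median 0.70), *Cd2* from 342 ± 9.58 to 779.9 ± 73 CPM (log2FC 1.19, FDR = 2e-08) and the CD30 ligand *Tnfsf8* from 73.5 ± 7.66 to 248 ± 43.2 CPM (log2FC 1.75, FDR = 4.3e-08) among them.

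The list of cytotoxic genes and chemokines had the highest median of the 30 lists. Of 22 genes, 17 were tested and 12 of them rose, 11 at least 2-fold (median log2FC 1.37). Among all genes 30.4% rose, and 14.5% at least 2-fold. Only 7 rose without replicate 2 or without replicate 3 of Day 3, and 8 without replicate 2 of Day 5. *Fasl*, the death ligand, had 3.27, 3.08 and 1.90 CPM on Day 3 and 15.8, 22.1 and 19.1 CPM on Day 5 (log2FC 2.79, SE 0.29, FDR = 8.1e-07). Abundant members were lymphotoxin β (*Ltb*), which rose from 217 ± 3.44 to 585 ± 107 CPM (log2FC 1.43, FDR = 3.9e-08), and the granule proteoglycan serglycin (*Srgn*), which rose from 344 ± 46.7 to 889 ± 134 CPM (log2FC 1.37, FDR = 1.2e-07). Beside *Fasl*, the death-promoting BCL2 family member BIM (*Bcl2l11*) rose, from 24, 20.4 and 20.4 CPM to 94.2, 63 and 70.2 CPM (log2FC 1.81, SE 0.15, FDR = 8.4e-08), with no overlap. The protective members *Mcl1* and *Bcl2a1b* rose by 0.81 and 0.63, and *Bcl2l1*, which encodes BCL-XL, fell from 147 ± 14.3 to 87.3 ± 11.2 CPM (log2FC −0.76, FDR = 0.00015) along with *Bid* (log2FC −0.47, FDR = 0.0022). Near-identical copies of *Bcl2a1b* make its value uncertain. In all, 4 of 15 tested BCL2 family genes rose and 2 fell, beside 30.4% and 30.1% of all genes.

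To find where this time course depended on the recipient, the change in Il6-/- recipients was compared with that in WT recipients as an interaction in the same model. The change was higher in Il6-/- recipients for 244 genes (1.80%) and lower for 424 (3.12%) at an FDR of 0.05. When library sizes were not scaled by TMM, 420 were higher and 228 lower, so which side was larger turned with the scaling. Leaving out any library other than replicate 1 of WT Day 3 moved at least 1 of these counts by over 1.5 times. Over such fits they ran from 99 without replicate 2 of WT Day 3 to 367 without replicate 1 of Il6-/- Day 5, and from 131 without replicate 2 of WT Day 3 to 678 without replicate 3 of WT Day 5. Of the 668 genes, 272 passed an FDR of 0.05 in the same direction in both recipients, 232 of them with the larger change in Il6-/-, and 51 passed in opposite directions. Another 236 passed in Il6-/- recipients and 109 in WT recipients alone. Of the 3509 genes called in Il6-/- recipients, 268 (7.64%) had such a difference. As a description, Spearman's rho between both changes was 0.84 across the 13570 genes, which are not independent replicates.

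**Figure D4:**
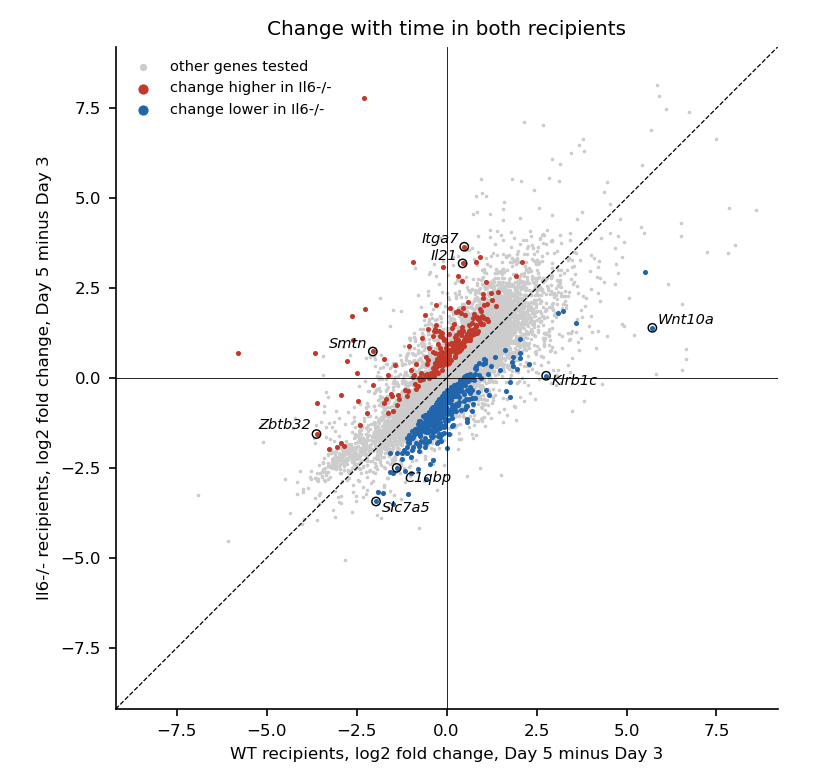
The log2FC of Day 5 minus Day 3 in WT recipients (x axis) and Il6-/- recipients (y axis) is plotted for each of 13570 genes, with the dashed line marking equal change. Colors mark the 244 genes whose change was higher (red) and the 424 whose change was lower (blue) in Il6-/- recipients, and *Itga7* and *Il21* lie above the line and *Klrb1c* and *Wnt10a* below it.

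Several genes whose rise was larger in Il6-/- recipients had lower means there than in WT recipients on Day 3. *Slfn5* rose in both recipients (WT log2FC 1.09), and the difference was 1.58 (SE 0.18, FDR = 0.001). *Irf7* went from 77.7 ± 7.33 to 89 ± 3.00 CPM in WT recipients (difference 1.30, SE 0.16, FDR = 0.0013). *Itga7*, the α7 integrin, rose from 0.422, 0.636 and 0.427 CPM to 4.02, 7.97 and 6.82 CPM in Il6-/- recipients, and it had 4.08 ± 0.420 and 5.74 ± 0.259 CPM in WT recipients (WT FDR = 0.11, difference 3.16, SE 0.41, FDR = 0.0015). Of the Tfh list, 7 of 19 genes had a higher change in Il6-/- recipients and none a lower one, beside 1.80% and 3.12% of all genes. The median log2FC of this list was 0.27 in WT recipients. The 7 included *Cxcr5* (WT log2FC 0.31, difference 1.55, SE 0.23, FDR = 0.0035), *Bcl6* (WT 1.24, difference 1.12, SE 0.22, FDR = 0.014), *Icos* (WT 0.23, difference 0.91, SE 0.13, FDR = 0.0030) and *Il21* (WT 0.44, difference 2.74, SE 0.59, FDR = 0.018). *Il21* had an FDR of 0.055 and 0.056 without replicate 1 or 2 of Il6-/- Day 3. On Day 3, *Cxcr5* had 162 ± 14 CPM in WT against 59.5 ± 10.5 CPM in Il6-/- libraries, and on Day 5 it had 202 ± 31.5 against 216 ± 48.1 CPM.

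Other differences of the same sign had other shapes. *Ahnak*, a scaffold protein of calcium channel signaling, rose from 40.7 ± 2.32 to 90.9 ± 8.76 CPM (log2FC 1.16, FDR = 5.8e-07) in Il6-/- recipients, and in WT recipients it had 58.1 ± 2.21 CPM on Day 3 and 51 ± 8.63 CPM on Day 5 (log2FC −0.19, FDR = 0.17). *Smtn*, a cytoskeletal gene, fell from 219.9 ± 31.6 to 53 ± 9.82 CPM in WT recipients and had 106, 125 and 151 and 119, 285 and 232 CPM in Il6-/- recipients (difference 2.79, SE 0.34, FDR = 0.0013). Its Il6-/- rise lost the call without replicate 2 of Day 5 (FDR = 0.10) or replicate 1 of Day 3 (FDR = 0.062). *Chst10*, a sulfotransferase gene, rose in Il6-/- (log2FC 0.59) and fell in WT recipients (log2FC −0.58, difference 1.17, SE 0.15, FDR = 0.0015). *Zbtb32* fell in both, to 8.88 ± 4.90 CPM in WT and to 31.4 ± 10.2 CPM in Il6-/- (difference 2.06, SE 0.40, FDR = 0.011). *Slc9a9* (difference 1.34, SE 0.17, FDR = 0.0013), *S1pr1* (0.93, SE 0.14, FDR = 0.0041), *Socs3* (1.48, SE 0.26, FDR = 0.0081) and *Il17rb* (0.85, SE 0.14, FDR = 0.0050) were higher too. In the type I interferon list, 6 of 32 genes differed, all upward (1.80% of all genes did), and the list's median log2FC in WT was 0.14.

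In the other direction, *Klrb1c*, the gene of the NK receptor NK1.1, rose in WT recipients and did not pass the test in Il6-/- recipients. It had 5.58, 5.14 and 3.75 CPM on Day 3 and 30.4, 32.3 and 36.5 CPM on Day 5 in WT recipients, and 18.2, 26.4 and 18.2 and 19.2, 23.1 and 23.3 CPM in Il6-/- recipients (difference −2.70, SE 0.24, FDR = 0.00017). *Wnt10a*, a Wnt ligand, rose in both, from 0.271 ± 0.0964 to 14.3 ± 4.30 CPM in WT and from 4.30 ± 0.661 to 11.3 ± 1.58 CPM in Il6-/- (difference −4.32, SE 0.42, FDR = 0.00021). *Bcl2l11* also rose more in WT (difference −1.29, SE 0.21, FDR = 0.0050). *Eno3*, an enolase, fell in Il6-/- (log2FC −0.64) and rose in WT recipients (log2FC 0.47, difference −1.11, SE 0.14, FDR = 0.0015), and *Sdhaf1* and *Plbd2* differed in direction likewise (difference −1.24, SE 0.17, FDR = 0.0028 for *Sdhaf1* and −0.80, SE 0.11, FDR = 0.0033 for *Plbd2*), although the Il6-/- fall of *Sdhaf1* had an FDR of 0.061 without replicate 2 of Day 3. Also lower in Il6-/- recipients were the changes of *C1qbp* (WT −1.39, difference −1.11, SE 0.14, FDR = 0.0014), *Slc7a5* (WT −1.96, difference −1.47, SE 0.24, FDR = 0.0055), *Chchd10* (difference −1.19, SE 0.16, FDR = 0.0022) and *Srsf6*, a splicing factor (difference −0.71, SE 0.09, FDR = 0.0015). Of the 32 ribosome biogenesis genes, 10 fell more in Il6-/- recipients and none less, *Npm1* among them (difference −0.60, SE 0.10, FDR = 0.0054), and the list's median was −0.85 in WT. Of the 38 G1/S genes 1 differed and of the 40 G2/M genes none, beside 1.80% higher and 3.12% lower among all genes, and the WT medians were −2.56 and −2.94. *Il2ra* fell in both recipients, and its changes of −3.15 and −3.68 differed by −0.53 (SE 0.42, FDR = 0.53), which did not pass the test.

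**Figure D5:**
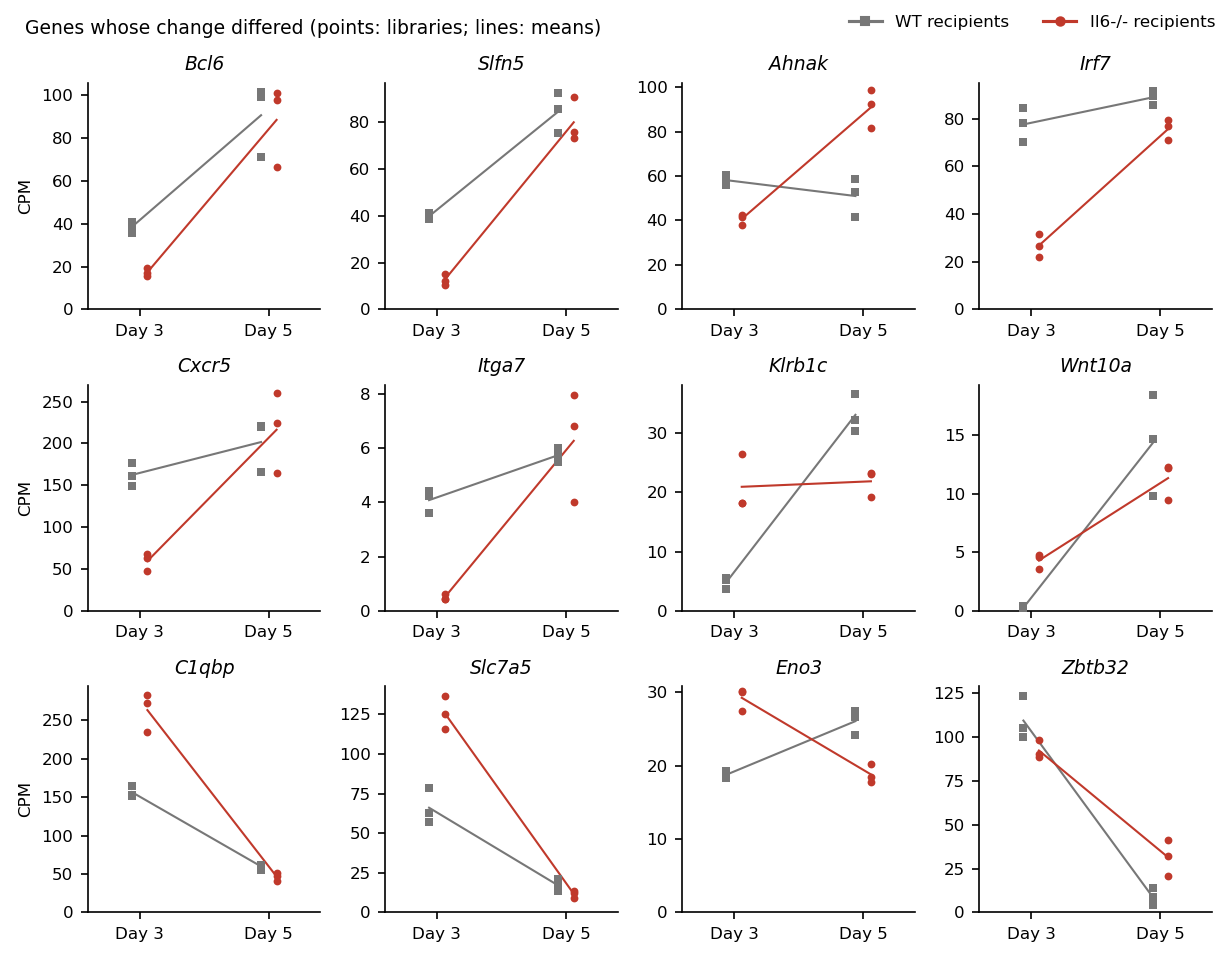
CPM of 12 genes whose change differed between the recipients at an FDR of 0.05, on Day 3 and Day 5, in each WT (gray squares) and Il6-/- library (red circles), with lines joining the means and each y axis starting at 0. *Bcl6*, *Slfn5*, *Irf7*, *Cxcr5* and *Itga7* began lower and *C1qbp*, *Slc7a5* and *Eno3* higher on Day 3 in Il6-/- than in WT recipients.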

How the data were processed

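RNA-seq libraries of sorted OTII cells (12 libraries, 4 groups of 3) were read as 50-base single reads. Per the labels and the study's methods, the authors used Trim Galore 0.4.4 to trim, STAR 2.5.2a to align to mouse GRCm39 and HTSeq 0.6.1p1 to count per gene. The deposited table holds these raw counts for 40840 genes, of which 15004 had no count. A second table deposited by the authors holds log2 CPM of 11258 genes with a prior count of 0.25, and was used only for 1 alternative.

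Genes passing edgeR's filterByExpr (13570) were tested with edgeR 4.0.16 in R 4.3.3, with TMM scaling, 1 coefficient per group over all 12 libraries, glmQLFTest and Benjamini-Hochberg adjustment over all genes tested (FDR). CPM used TMM-scaled totals. Folds of genes with at most 3 counts in every library of a group are bounds against 3 counts per library. The code was tested on simulated data. Alternatives changed the scaling, filter, tool (DESeq2 1.42.0, limma 3.58.1), GC offset, replicate block and libraries. Positions and sequences came from GENCODE vM39, which matched 79.9% of gene names.

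Named were 30 fixed genes, the 10 with the smallest p and the 3 largest folds per direction among called genes with separate libraries and at least 1 CPM, up to 3 per direction of each list, the 8 per direction with the smallest interaction p and the 10 most abundant per day, leaving out unnamed gene models and some genes that are not reported here. *Ms4a1*, *Ighm*, *Cd79b*, *Cd22*, *H2-DMa*, *Il9*, *Il31*, *Il3* and the heat shock and overlapping genes were named beside a result. Members and gene lists were chosen with earlier results of these data known. Replicate numbers did not pair samples.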

Additional observations from a re-analysis of the deposited data

Results flagged for a closer look

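For 40 of the named genes, the change from Day 3 to Day 5 differed between Il6-/- and WT recipients by the interaction test itself (edgeR's quasi-likelihood F test, FDR under 0.05), and each is given here as the Il6-/- minus the WT change in log2 units. The differences were 1.48 for *Socs3*, 1.12 for *Bcl6*, 1.55 for *Cxcr5*, 2.74 for *Il21*, 0.91 for *Icos*, 0.93 for *S1pr1*, 0.85 for *Il17rb*, 0.63 for *Vsir* and 2.06 for *Zbtb32*. Interferon-induced genes differed by 1.30 (*Irf7*), 0.55 (*Irf9*) and 1.58 (*Slfn5*).

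Among other genes with a higher change in Il6-/- recipients, the differences were 0.90 for *Faah*, 0.92 for *Slc26a11*, 0.85 for *Syt11*, 1.34 for *Slc9a9*, 0.53 for *Utrn*, 1.01 for *Pear1*, 1.35 for *Ahnak*, 2.79 for *Smtn*, 1.17 for *Chst10*, 3.16 for *Itga7* and 0.76 for *Rbl2*. The fitted difference of 10.09 for *Akap6* is no measure of size, since the gene had no count in any Il6-/- Day 3 library, whereas in WT recipients it had 0.507, 0.791 and 0.489 CPM on Day 3 and 0.153, 0 and 0.188 CPM on Day 5.

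The change was lower in Il6-/- recipients for *Klrb1c* (−2.70), *Wnt10a* (−4.32), *Bcl2l11* (−1.29), *Eno3* (−1.11), *Sdhaf1* (−1.24), *Plbd2* (−0.80), *Chchd10* (−1.19) and *Srsf6* (−0.71). It was lower too for *Slc7a5* (−1.47), *C1qbp* (−1.11), *Npm1* (−0.60), *Nop58* (−0.56), *Nop56* (−0.52), *Uck2* (−0.69), *Ppid* (−0.71) and *Gemin6* (−0.49). The tests of *Gemin6*, *Nop56*, *Nop58*, *Vsir*, *Utrn*, *Uck2*, *Il21* and *Irf9* lost their call under some alternatives, *Irf9* without replicate 2 of Il6-/- Day 3 alone (FDR = 0.058).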

How the results depend on the processing

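The counts of genes higher or lower on Day 5 in Il6-/- recipients stayed within 1.5 times of 1966 and 1543 under other scalings, filters, tools, a GC-content offset and with the 6 Il6-/- libraries alone. They were 4122 and 4089 with no fold limit, and 726 and 804 when tested against a 2-fold change. Leaving out 1 library gave 1717 to 1963 genes higher and 1402 to 1729 lower, the lowest of both without replicate 1 and the highest without replicate 2 of Il6-/- Day 5. The counts of the interaction (244 higher, 424 lower) were less stable, with 420 and 228 without scaling, 579 and 721 without a low-count filter, and 482 and 650 with DESeq2. They ran from 99 to 367 and from 131 to 678 when 1 library was left out. Fewer samples entered those last fits, and otherwise the cause was not tested.

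Replicate numbers name samples only, since same-numbered Il6-/- libraries of both days correlated at −0.07, −0.05 and −0.06 in their deviations from the group means. With a replicate block, 1818 genes were higher and 1548 lower, and the interaction gave 144 and 263 genes, or 133 and 266 with a GC-content offset as well.

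Of 4157 values of the 181 named genes under alternatives, 4129 kept their side of the threshold. Another 25 lost the call (those of *Cxcr3*, *Il2rb*, *Il4*, *Ifng*, *Lars2*, *Ptpn6*, *Sdhaf1*, *Smtn* and *Socs6*) and 3 gained it (*Klf2* and *Coro1a*). No value changed sign where it or the main value passed the threshold, and a change of sign between values that both failed it was not counted. Of 877 values of the 40 interaction tests, 808 kept their direction and side of the threshold and 69 lost the call. Of 690 values of the 30 list medians, 88 moved by at least the pooled SD of that median between replicates, and 5 lists stayed within it under every alternative. Medians of 3 lists took another sign in 13 values. Depth limits the rare transcripts, above all the cytokines and the genes with at most 3 counts per library of a group.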
